A study of Mus musculus with 14 samples.

Results

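The comparison described here is that of mouse embryonic fibroblasts deprived of amino acids for 6 h with untreated control cells, taken over all genes. It compares 4 of the series' 14 RNA sequencing libraries, over 17696 tested genes of 40800 in the table. The rule for members was the design itself, so no measured value chose them, and each gene stands for its most counted transcript in the series. Mouse embryonic fibroblasts are connective tissue cells grown from mouse embryos, and the labels name no genotype, passage or embryo. The series concerns autophagy, the breakdown of cell contents in lysosomes, when nutrients run out. Starved cells, as the text calls them, had their medium replaced for 6 h by DMEM without amino acids that held dialyzed serum, which lacks small molecules such as free amino acids. They were then trypsinised and frozen with DMSO in dialyzed serum. Control cells, at 0 h, kept their high-glucose medium with ordinary serum and were frozen with DMSO in ordinary serum. A comparison with control cells therefore includes the change of medium, the serum and the freezing medium. It also includes the 6 h that passed, since the series has no control at 6 h. The parts of these in the result cannot be told apart. Cells starved of amino acids for 3 and 12 h, and cells kept for 6 h without glucose, had the same dialyzed serum, and they are used below to test how the state at 6 h differs from its neighbours. Each group holds 2 libraries. Nothing in the labels names separate cultures, so the spread within each pair may be technical. The test pools that spread over the 7 groups of the series. The p-values are only as good as this pooled spread and do not measure that of the compared pairs alone.

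Cells sense a lack of amino acids through at least a pair of routes. Uncharged tRNA activates the kinase GCN2, which phosphorylates the initiation factor eIF2. General translation then slows, while the transcription factor ATF4 is made and turns on genes for amino acid uptake, amino acid synthesis and tRNA charging, a program called the integrated stress response. On the lysosome, Rag GTPases and their sensor proteins stop activating the kinase mTORC1, which releases autophagy and the lysosomal transcription factors TFEB and TFE3 and restrains ribosome production and lipid synthesis.

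The starved libraries held 42352164 and 55349673 reads, and the control libraries 43599404 and 43305340. Levels are counts per 1000000 (CPM) on TMM-scaled library totals, in the order replicate 1 and replicate 2, unless a mean ± SD of n = 2 libraries is given. A gene is said to have risen or fallen where edgeR's quasi-likelihood test gave a Benjamini-Hochberg adjusted p under 0.05 over all genes tested. Against control cells 5719 genes rose, or 32.3% of those tested, and 5889 fell, or 33.3%. That is 65.6% in either direction, so that most genes passed, and a list whose shares are near these is at the level of all genes. At least 2-fold changes were seen for 2219 genes that rose (12.5%) and 2282 that fell (12.9%), and the libraries of the groups did not overlap in 40.6% of genes as higher and 41.2% as lower. The median of all genes was -0.01 on the log2 scale. This balance depends on the scaling. Library totals alone gave a median of -0.08 and made 44.4% of calls higher, against 49.3% with TMM. Lists are described below by how many of their tested members rose and fell and by the median of their log2 fold changes, to be read against these figures. The fibroblast label was checked against 12 fibroblast markers, whose summed level was 6062 and 5928 CPM in starved cells and 8913 and 8124 CPM in control cells. Vim, Col1a1, Col1a2 and Fn1 were high in all 4 libraries, whereas the surface marker Thy1 had no reads in any of them. Of the 11 fibroblast markers tested 2 rose and 8 fell (median log2 fold change -0.85). Of markers of other cell types, 9 of macrophages summed to 21.7 and 20.6 CPM in starved cells and 14.9 and 14.4 CPM in control cells, with 4 of them, Ptprc, Adgre1, C1qa and C1qb, at 0 in all 4 libraries. Most of that was Csf1r, at 16.8 and 16.5 CPM in starved cells, against 11.6 and 10.9 CPM in control cells. A count of 0 allows up to 0.0544 to 0.0708 CPM in these libraries (3 reads, counting error only). Markers of skeletal muscle, fat, epithelium and red cells summed to below 6 CPM in each library. The 8 neural markers summed to 174 and 183 CPM in starved cells and 256 and 263 CPM in control cells. Nearly all of that was Nes and Map2, of which 0 rose and 1 fell, and the other neural markers were at or near 0. Among 7 endothelial markers the sum was 24.9 and 25.5 CPM in starved cells and 4.43 and 5.26 CPM in control cells. Most of it was Kdr, a receptor of vascular growth factor, at 21.4 and 22.8 CPM in starved cells, against 3.903 and 4.91 CPM in control cells. Of the 5 endothelial markers tested 3 rose, each at least 2-fold, and 0 fell (median log2 fold change 2.33). Pecam1 was near 0, at 0.142 and 0.2902 CPM in starved cells, against 0.131 and 0.131 CPM in control cells, and Cdh5 was lower still. In bulk RNA, fewer cells of a type and less RNA per cell cannot be told apart.

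The amino acid response has a known DNA signature, the C/EBP-ATF response element, and its core was searched in the promoters of the genes of the lists below. The letters searched were TGATGNAA on both strands, in windows of 250 bases before and 50 after the start of each gene taken from RefSeq on GRCm38.p6. The core was found in 10 of 31 ATF4 target genes with a window, and in 5 of 13 cytosolic tRNA synthetase genes. By window, that is 25.6% and 38.5%, against 3.97% of all 32851 windows and 2.37% of those of tested genes. The other lists searched held it in 18.2% (leucine zipper factors), 13.3% (amino acid carriers) and 5.26% (cholesterol synthesis, which mostly fell) of windows. Lists share some genes, and the ATF4 list holds textbook targets, so its share is not independent evidence. Windows of genes that rose at least 2-fold held it in 5.14% of 1772, and those of genes that fell at least 2-fold in 1.92% of 2034. A match describes letters in a window, not a site in use. Shown are the stretches of the 11 genes of the ATF4 target and synthetase lists with the core before the start. All of these genes rose, which was not a condition for showing them. The lists were chosen with earlier results of these data known, however, and all 38 tested ATF4 targets rose. The rise of the genes shown is therefore not independent evidence. The core is in capitals, and each stretch is read 5′ to 3′ on the strand of the gene and ends before its start.
Asns (chr6:7693210-7693261, GRCm38.p6, minus strand): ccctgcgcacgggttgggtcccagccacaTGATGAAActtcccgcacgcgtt
Atf3 (chr1:191183414-191183465, GRCm38.p6, minus strand): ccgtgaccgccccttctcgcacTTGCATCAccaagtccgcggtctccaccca
Chac1 (chr2:119351027-119351078, GRCm38.p6, plus strand): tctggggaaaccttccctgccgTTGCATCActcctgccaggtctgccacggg
Fgf21 (chr7:45615600-45615651, GRCm38.p6, minus strand): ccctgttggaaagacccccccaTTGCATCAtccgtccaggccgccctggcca
Nupr1 (chr7:126625551-126625602, GRCm38.p6, minus strand): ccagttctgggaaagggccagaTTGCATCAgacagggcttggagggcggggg
Pycr1 (chr11:120643822-120643873, GRCm38.p6, minus strand): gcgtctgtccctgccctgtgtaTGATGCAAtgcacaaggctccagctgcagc
Slc7a11 (chr3:50443631-50443682, GRCm38.p6, minus strand): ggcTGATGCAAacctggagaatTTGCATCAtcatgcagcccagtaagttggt
Vldlr (chr19:27216798-27216849, GRCm38.p6, plus strand): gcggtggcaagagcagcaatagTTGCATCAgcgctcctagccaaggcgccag
Aars (chr8:111033708-111033759, GRCm38.p6, plus strand): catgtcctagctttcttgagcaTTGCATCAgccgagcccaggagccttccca
Gars (chr6:55037949-55038000, GRCm38.p6, plus strand): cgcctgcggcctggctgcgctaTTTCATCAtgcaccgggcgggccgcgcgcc
Tars (chr15:11399659-11399710, GRCm38.p6, minus strand): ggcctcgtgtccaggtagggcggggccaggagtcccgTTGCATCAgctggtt
Slc7a11 held the core on each strand within this short stretch. In Tars, Asns and Gars the core began 15, 23 and 30 bases before the start of the gene, and in Vldlr 200 bases before it.

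**Figure D1:**
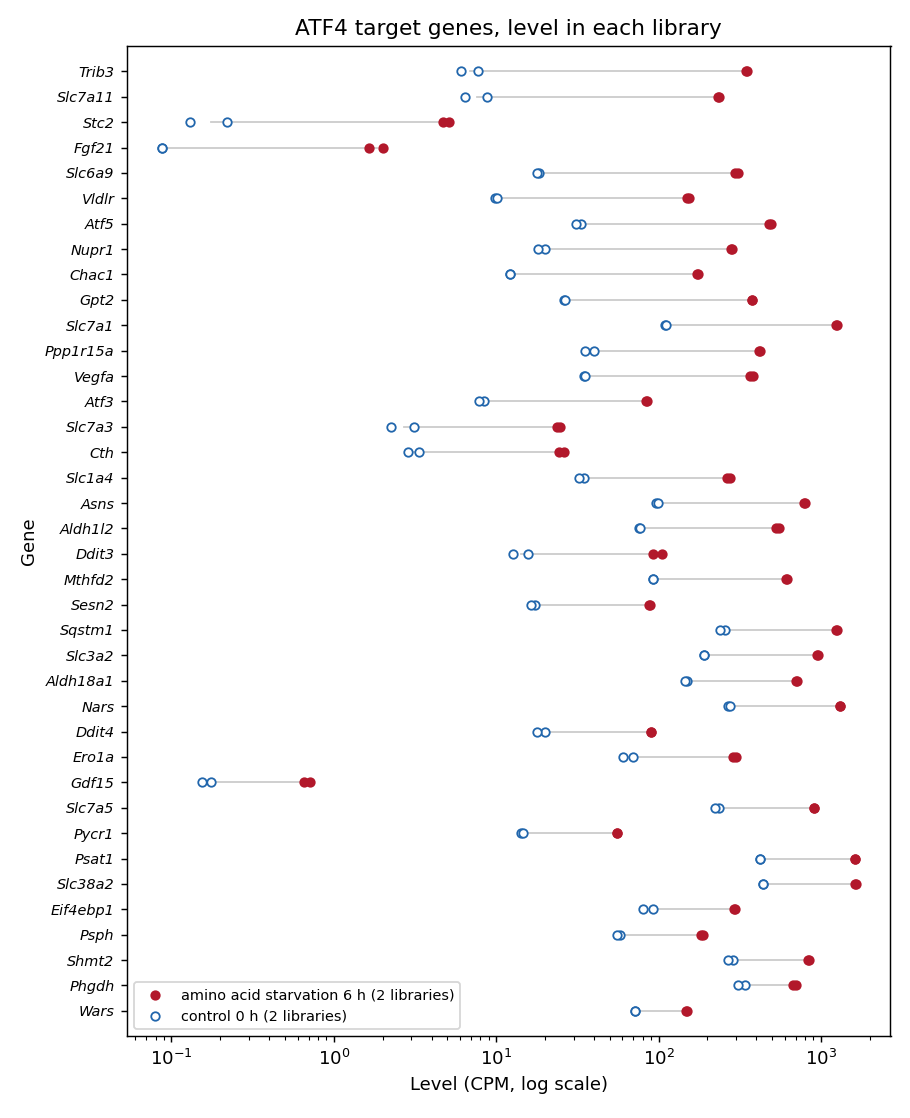
Level in each library of the 38 ATF4 target genes (x axis, CPM, log scale; 1 gene a row, ordered by log2 fold change). Filled circles are the 2 libraries of cells starved of amino acids for 6 h and open circles the 2 control libraries. In every row both filled circles lie to the right of both open circles, as held for 40.6% of all genes tested.

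At the head of the pathway, mRNA of the sensor kinase itself did not pass the test. Eif2ak4, which encodes GCN2, had 47.7 and 48.3 CPM in starved cells, against 50.5 and 44.95 CPM in control cells (log2 fold change 0.01, SE 0.069), and its partner Gcn1 had a log2 fold change of 0.01. The libraries of both groups overlap in level for Eif2ak4. Ppp1r15a, which encodes the stress-induced subunit that directs a phosphatase to eIF2, rose to 421 and 418 CPM in starved cells, against 39.99 and 35.2 CPM in control cells (log2 fold change 3.48, SE 0.063, edgeR adjusted p = 7.39e-27). Its constitutive counterpart Ppp1r15b rose too, to 343 and 340.2 CPM in starved cells, against 111 and 118 CPM in control cells. Among the other eIF2 kinases, Eif2ak2, encoding the double-stranded RNA sensor PKR, fell to 35.4 and 39.2 CPM in starved cells, against 73.04 and 80.6 CPM in control cells, and Impact, an inhibitor of GCN2 activation, fell by 0.53 on the log2 scale. Subunits of eIF2 and of its exchange factor eIF2B moved in both directions. Of 8, 3 rose and 4 fell, and the beta subunit Eif2s2 was highest, at 815 and 856 CPM in starved cells, against 305 and 336 CPM in control cells. Eif2b4, a subunit of the exchange factor, was lowest, with a log2 fold change of -1.12.

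Transcription factors of the response rose strongly. Of 10 leucine zipper factors 8 rose and 2 fell, with a median log2 fold change of 2.54. Atf4 mRNA had 1014 and 1031 CPM in starved cells, against 304 and 314 CPM in control cells (log2 fold change 1.73, SE 0.054, edgeR adjusted p = 2.46e-21). Its relative Atf5, also controlled by translation in stress, rose further, to 493 and 481 CPM in starved cells, against 33.4 and 30.96 CPM in control cells (log2 fold change 3.92). Atf3, a repressor and partner of ATF4, had 85.1 and 83.4 CPM in starved cells, against 8.46 and 7.84 CPM in control cells. In none of these genes did the libraries of the groups overlap, though 40.6% of all genes were likewise higher without overlap. Ddit3, encoding the death-associated factor CHOP, had 92.8 and 105 CPM in starved cells, against 15.8 and 12.7 CPM in control cells. Cebpg, the dimer partner of ATF4 at many of its sites, had 286 and 292 CPM in starved cells, against 40.3 and 42.9 CPM in control cells. Per transcript length, Atf4 was by far the most abundant of these, at a mean of 1195 transcripts per 1000000 (TPM) in starved cells and 352 TPM in control cells. On the same per-length scale Atf5 averaged 541 TPM in starved cells and 34.8 TPM in control cells, and Atf3 85.6 TPM in starved cells and 8.07 TPM in control cells. Xbp1, a factor of the unfolded protein response, and Cebpd went the other way and fell, with log2 fold changes of -0.88 and -0.73.

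All 38 tested ATF4 targets rose, with a median log2 fold change of 2.81, and their levels by library are in the plot of ATF4 targets. The list holds textbook targets and was drawn up with earlier results of these data known, so its direction is not independent evidence. Trib3, a pseudokinase that feeds back on ATF4, had 349 and 345 CPM in starved cells, against 7.697 and 6.07 CPM in control cells (log2 fold change 5.66, SE 0.080, edgeR adjusted p = 9.81e-29). Chac1, which breaks down glutathione and carries the core shown above, had 176 and 173 CPM in starved cells, against 12.2 and 12.1 CPM in control cells. Asns, encoding asparagine synthetase, had 786 and 795 CPM in starved cells, against 97.1 and 99.4 CPM in control cells. Fold changes within the list thus ran from that of Trib3 down to those of Phgdh and Wars, at 1.07 and 1.06 on the log2 scale. Secreted stress signals were among the targets. The angiogenic factor Vegfa had 365 and 385 CPM in starved cells, against 34.7 and 35.1 CPM in control cells. The glycoprotein hormone Stc2 rose by a log2 of 4.80 at a low level, 5.15 and 4.73 CPM in starved cells, against 0.131 and 0.219 CPM in control cells. Fgf21, a hormone of nutrient stress, rose by a log2 of 4.35 but stayed scarce, at 1.65 and 2.01 CPM in starved cells, against 0.0872 and 0.0876 CPM in control cells. Nupr1, a small stress-induced chromatin protein, had 278 and 282 CPM in starved cells, against 19.97 and 18.1 CPM in control cells.

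Cytosolic tRNA synthetases, which load tRNA with amino acids, mostly rose: of 20, 15 rose and 4 fell (median log2 fold change 1.22). The threonyl enzyme Tars had 1152 and 1161 CPM in starved cells, against 202 and 209.6 CPM in control cells. The asparaginyl enzyme Nars had 1304 and 1311 CPM in starved cells, against 268 and 277 CPM in control cells, and the isoleucyl enzyme Iars rose by 2.02 on the log2 scale. Groups did not overlap in any of the 3, as held for 40.6% of all genes on the higher side. The lysyl enzyme Kars fell to 151 and 155 CPM in starved cells, against 313 and 307 CPM in control cells. The other members that fell were the histidyl enzyme Hars, the phenylalanyl subunit Farsa and the aspartyl enzyme Dars, with log2 fold changes of -0.44, -0.37 and -0.17. The call of Dars was lost with a stricter filter on low counts (-0.12, edgeR adjusted p = 0.0741), without the second control library (-0.14) and without either starved library (-0.17 and -0.18). Both phenylalanyl subunits were measured, and they moved in opposite directions, since Farsb rose by 0.85. Qars, the glutaminyl enzyme, did not pass, at 135 and 134 CPM in starved cells, against 139 and 131 CPM in control cells. Synthetases of mitochondria are encoded by separate genes, and of 17, 4 rose and 8 fell (median -0.35). Cars2 fell to 6.31 and 7.02 CPM in starved cells, against 21.9 and 18.7 CPM in control cells, whereas Mars2 and Ears2 rose by 0.62 each on the log2 scale.

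Most amino acid carriers rose. Of 25, 15 rose and 7 fell (median 1.36). Slc7a11, the cystine-glutamate exchanger, had 234 and 233 CPM in starved cells, against 8.72 and 6.42 CPM in control cells (log2 fold change 4.95, SE 0.094, edgeR adjusted p = 2.88e-25). Slc6a9, a glycine carrier, had 308 and 298 CPM in starved cells, against 18.4 and 17.8 CPM in control cells. Slc7a1, the main carrier of arginine and lysine, had 1258 and 1237 CPM in starved cells, against 109 and 111 CPM in control cells. In all 3 carriers both starved libraries lay far above both control libraries, and 40.6% of all genes were likewise higher without overlap. The neutral carriers Slc1a4, Slc1a5, Slc38a1 and Slc38a2 rose by log2 values of 3.01, 2.06, 1.68 and 1.89, and the LAT1 pair, Slc7a5 with its heavy chain Slc3a2, by 1.98 and 2.33. Carriers on the lysosome also moved: Slc36a1 and Slc38a7, which let amino acids out of it, rose by 1.13 and 1.81, while Slc38a9, the lysosomal arginine sensor, did not pass at 0.08. Of the members that fell, the glutamate carrier Slc1a3 had 6.52 and 8.72 CPM in starved cells, against 30.4 and 30.9 CPM in control cells. The neutral carrier Slc38a4 and the L-type carriers Slc43a1 and Slc43a2 fell, with log2 fold changes of -2.18, -1.07 and -1.28.

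Enzymes that make serine, glycine and folate-bound carbon units rose in 10 of 14 cases and fell in 1 (median 1.62). In the mitochondrial branch, Mthfd2 had 615 and 609 CPM in starved cells, against 91.9 and 91.9 CPM in control cells, and Aldh1l2 rose by 2.82 on the log2 scale. Its cytosolic counterpart Mthfd1 fell to 109 and 106 CPM in starved cells, against 164 and 145 CPM in control cells, with a log2 fold change of -0.53. The methionine synthase Mtr had a log2 fold change of 0.01 that did not pass. In the rest of amino acid metabolism, 11 rose and 10 fell of 24. Gpt2, the mitochondrial alanine aminotransferase, had 377 and 375 CPM in starved cells, against 25.99 and 26.4 CPM in control cells. The cysteine-forming enzyme Cth had 26.1 and 24.5 CPM in starved cells, against 2.88 and 3.33 CPM in control cells. The proline enzymes Aldh18a1 and Pycr1 rose by 2.27 and 1.95, but the related reductase Pycrl fell, with a log2 fold change of -0.44. Arginine-forming Ass1 and Asl both fell, with log2 fold changes of -1.03 and -1.02. The branched-chain aminotransferases moved in opposite directions. Cytosolic Bcat1 rose to 345 and 336 CPM in starved cells, against 121 and 120.2 CPM in control cells. Mitochondrial Bcat2 fell to 6.33 and 7.13 CPM in starved cells, against 22.7 and 18.6 CPM in control cells.

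Sensors that report amino acids to mTORC1 moved in both directions: of 17 sensor and GATOR genes 7 rose and 8 fell (median -0.20). Leucine-sensing sestrins hold mTORC1 off while no leucine is bound to them. Sesn2 had 86.8 and 88.7 CPM in starved cells, against 17.5 and 16.3 CPM in control cells, a log2 fold change of 2.38. Sesn1 had 10.3 and 9.18 CPM in starved cells, against 25.9 and 22.1 CPM in control cells, and Sesn3 fell by 0.78. The groups were apart in all 3 sestrins, with Sesn2 higher and the other members lower in starved cells. They were also apart in 40.6% of all genes as higher and 41.2% as lower. The arginine sensors Castor1 and Castor2 fell as well, with log2 fold changes of -1.79 and -1.72 and with Castor2 at 10.4 and 9.78 CPM in starved cells, against 32.7 and 34.05 CPM in control cells. In the Rag and Ragulator list 6 rose and 3 fell of 12. Fnip1 rose to 244 and 237 CPM in starved cells, against 57.5 and 62.2 CPM in control cells. Its partner Flcn, with which it acts on RagC and RagD, rose by 1.09. Rragc and Rragd rose by 0.92 and 0.80, Rraga and Rragb did not pass, and the anchoring subunits Lamtor2 and Lamtor4 fell, with log2 fold changes of -1.27 and -1.58. Of mTOR complex, TSC and 4E-BP genes 9 rose and 4 fell of 16. The mTORC1 inhibitor Ddit4 had 90.3 and 90.5 CPM in starved cells, against 20.02 and 17.8 CPM in control cells. The translation repressor Eif4ebp1 had 295 and 292 CPM in starved cells, against 92.2 and 80.8 CPM in control cells. The kinase gene Mtor itself did not pass, at 63.4 and 59.7 CPM in starved cells, against 69.8 and 57.4 CPM in control cells.

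Autophagy genes, the subject of the series, rose in some steps and not in others. Among 13 genes of the initiating ULK1 and VPS34 complexes 10 rose and 1 fell (median 0.60). Atg13, a regulator of the ULK1 kinase, had 59.1 and 57.6 CPM in starved cells, against 23.2 and 24.9 CPM in control cells. The scaffold Rb1cc1, also called FIP200, had 126 and 129 CPM in starved cells, against 50.3 and 59.1 CPM in control cells. Ulk1 rose by 0.69, whereas its relative Ulk2 was the member that fell, to 19.3 and 18.4 CPM in starved cells, against 25.9 and 25.9 CPM in control cells. Of the ATG8 proteins that coat the autophagosome, Gabarapl1 rose to 109.8 and 101 CPM in starved cells, against 35.9 and 30.3 CPM in control cells. Map1lc3b, encoding LC3B, rose to 229.9 and 222 CPM in starved cells, against 106 and 107 CPM in control cells, and Gabarapl2 and Gabarap by 0.66 and 0.29. The ATG4 proteases that process them fell in 3 of 4 cases, with log2 fold changes of -1.60, -0.93 and -0.72 for Atg4c, Atg4a and Atg4b. In conjugation and membrane expansion, 7 rose and 4 fell of 17: the ubiquitin-like Atg12 rose by 1.57, while its partner Atg5 and its enzymes Atg7 and Atg10 fell, with log2 fold changes of -0.31, -0.47 and -1.02. The call of Atg10 was lost without the second control library (-0.77). Cargo receptors rose in 11 and fell in 4 of 20. Sqstm1, encoding the receptor p62 and an ATF4 target, had 1235 and 1252 CPM in starved cells, against 256 and 238 CPM in control cells. Stbd1, the receptor for glycogen, had 57.4 and 57.7 CPM in starved cells, against 13.5 and 12.1 CPM in control cells. Receptors for mitochondria were among those that fell. Fundc1 fell to 8.503 and 8.62 CPM in starved cells, against 19.3 and 22.8 CPM in control cells. Bnip3, Fkbp8 and Phb2 fell, with log2 fold changes of -0.40, -0.60 and -0.70, but Bnip3l rose by 0.71. For fusion with the lysosome, 6 rose and 7 fell of 14 (median -0.18). The tether Epg5 rose to 92.6 and 90.6 CPM in starved cells, against 30.1 and 29.98 CPM in control cells. The membrane-fusing Vamp8 fell by 1.47, and its partners Stx17 and Snap29 had log2 fold changes of -0.32 and -0.41. The call of Stx17 was lost without the second control library (-0.31) or the second starved library (-0.26).

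Lysosomal genes moved in both directions. Of 27 genes of the membrane and its proton pump 16 rose and 7 fell (median 0.51). The pump subunit Atp6v0b had 195 and 202 CPM in starved cells, against 73.02 and 72.5 CPM in control cells, and Atp6v1c1 rose by 1.28. The cation channel Tpcn1, by contrast, fell to 9.33 and 8.54 CPM in starved cells, against 37.7 and 36.8 CPM in control cells. Cln3 had the highest fold change of the list, 4.55, but its exons overlap another annotated gene and whose reads these are cannot be told apart. Of 32 luminal hydrolases, 10 rose and 16 fell (median -0.29). The galactosidase Gla rose to 34.5 and 37.1 CPM in starved cells, against 13.5 and 15.3 CPM in control cells, and the cathepsin gene Ctsk by 2.27. The glucuronidase Gusb fell to 21.9 and 22.5 CPM in starved cells, against 70.99 and 63.8 CPM in control cells, and the acid lipase Lipa fell by 1.14. Of the factors that drive lysosomal genes, Mitf and Tfe3 rose by 0.70 and 0.50, and Tfeb fell by 0.39. The call of Mitf was lost without the second control library (0.49), and that of Tfeb without the first control library (-0.33) or the second starved library (-0.36).

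Most folding genes of the endoplasmic reticulum (ER) fell. ER chaperones and folding enzymes fell in 15 of 18 cases and rose in 1 (median -0.70). Pdia4, a disulfide isomerase, fell to 87.9 and 86.9 CPM in starved cells, against 302 and 307 CPM in control cells, and Sdf2l1, Pdia6 and Creld2 had log2 fold changes of -1.73, -1.44 and -1.44. Hspa5, which encodes the master chaperone BiP, did not pass, at 1326 and 1313 CPM in starved cells, against 1412 and 1424 CPM in control cells (log2 fold change -0.10). It was called lower with library totals in place of TMM, at -0.18 (adjusted p = 0.00186, edgeR). The member that rose was Dnajb9, a co-chaperone that holds IRE1 inactive, at 45.9 and 46.4 CPM in starved cells, against 8.002 and 10.4 CPM in control cells. Sensors and the oxidase of the unfolded protein response included genes that rose strongly. Ern1, encoding IRE1, had 216 and 199 CPM in starved cells, against 36.5 and 38.1 CPM in control cells. Atf6 had 258 and 250.1 CPM in starved cells, against 50.98 and 50.4 CPM in control cells, and the thiol oxidase Ero1a rose by 2.18. In that list 5 rose and 4 fell of 10, and Creb3l2 was lowest at -1.65. In ER-associated degradation 7 rose and 6 fell of 18. Herpud1, a scaffold of the degradation complex, had 312 and 308 CPM in starved cells, against 76.4 and 73.8 CPM in control cells, and Edem2, which trims sugars of misfolded proteins, fell by 1.84. Coats of vesicles between ER and Golgi fell in 15 of 19 genes and rose in 1, by modest amounts (median -0.41), with Copg2 lowest at -1.40.

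Cells kept without glucose for 6 h differed in this compartment, and the difference was tested directly. Against glucose-starved cells, all genes gave 5573 higher calls (31.5%) and 5722 lower calls (32.3%), 63.8% in all. Among ER chaperones 17 of 18 were lower in amino acid-starved cells and 1 was higher (median -1.40). Hspa5 averaged 1319 ± 9.2 CPM in amino acid-starved cells and 4139.6 ± 141 CPM in glucose-starved cells (SD, n = 2 each; log2 fold change -1.65, SE 0.053, edgeR adjusted p = 8.16e-21). Hyou1 and Sdf2l1 differed by -1.53 and -3.05. ATF4 targets were higher under amino acid starvation in 34 of 38 and lower in 2 (median 0.78), with Trib3 at 347 ± 2.8 CPM without amino acids and 148 ± 0.93 CPM without glucose. Slc7a11 averaged 234 ± 0.99 CPM in amino acid-starved cells and 32.2 ± 0.78 CPM in glucose-starved cells. Txnip, a glucose-responsive inhibitor of thioredoxin and of glucose uptake, averaged 32.8 ± 3.0 CPM without amino acids and 0.606 ± 0.12 CPM without glucose.

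**Figure D2:**
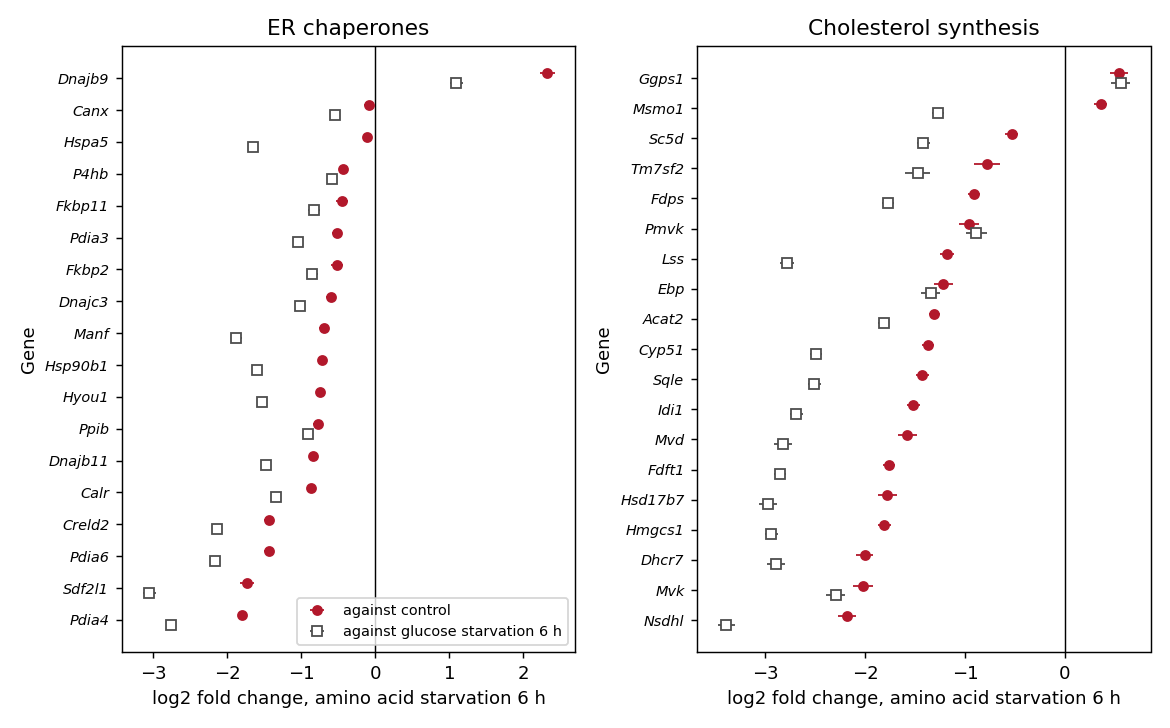
Log2 fold changes of ER chaperone genes (left) and of cholesterol synthesis genes reported here (right) after amino acid starvation for 6 h, against control cells (filled circles) and against glucose starvation for 6 h (open squares); bars are standard errors from the edgeR fit and the vertical line is 0. In both panels most symbols lie left of 0, and both comparisons use the same starved libraries.

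Genes of sterol synthesis fell almost throughout. Of 21 genes 2 rose and 19 fell (median -1.37). Hmgcs1, an early enzyme of the pathway, had 31.3 and 32.3 CPM in starved cells, against 109 and 114 CPM in control cells (log2 fold change -1.81, SE 0.063, edgeR adjusted p = 3.35e-20). Sqle, the squalene epoxidase, had 54.7 and 55.9 CPM in starved cells, against 146 and 152 CPM in control cells. The groups did not overlap in either gene, and 41.2% of all genes were likewise lower without overlap. The exceptions were Msmo1, a sterol demethylating oxidase, at 157 and 156 CPM in starved cells, against 111 and 134 CPM in control cells, and Ggps1, of the isoprenoid branch, which rose by 0.54. The driver of these genes, Srebf2, fell by 0.90, and Insig1 and Insig2, whose products retain it in the ER, fell, with log2 fold changes of -0.56 and -0.64. Against glucose starvation 20 of the 21 were lower and 1 was higher (median -2.49). The sterol regulatory element TCACNCCAC, searched on both strands, occurred in 1 of 16 cholesterol genes with a window, Hmgcs1. By window, that is 1 of 19, or 5.26%, against 1.24% of all windows and 1.16% of those of tested genes. Windows of genes that rose at least 2-fold held it in 1.52%, and those of genes that fell at least 2-fold in 0.983%. The Hmgcs1 stretch is shown with the element in capitals.
Hmgcs1 (chr13:119690192-119690244, GRCm38.p6, plus strand): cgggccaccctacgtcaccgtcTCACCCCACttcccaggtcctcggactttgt
Of 9 genes that store or export sterols 4 rose and 1 fell (median 0.36), against 32.3% and 33.3% of all genes. Soat2, a cholesterol-esterifying enzyme, had 18.5 and 19.1 CPM in starved cells, against 0.109 and 0.0876 CPM in control cells. Apoe, a lipid carrier, had 13.3 and 11.8 CPM in starved cells, against 2.46 and 2.72 CPM in control cells, and Nceh1, which hydrolyses cholesterol esters, fell by 0.64 on the log2 scale. Outside that list, the nuclear receptor gene Nr1h3, whose product LXR alpha senses oxysterols, rose by 2.88 to 0.874 and 0.472 CPM in starved cells, against 0.109 and 0.0657 CPM in control cells.

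Of 14 fatty acid synthesis genes 10 fell and 2 rose (median -0.63). Elovl6, which lengthens saturated chains, had 7.18 and 7.78 CPM in starved cells, against 72.2 and 77.7 CPM in control cells. The desaturase Scd2 had 122 and 123 CPM in starved cells, against 1043 and 1095 CPM in control cells. Fasn, the synthase itself, fell by 0.54. Genes of fatty acid oxidation fell too, in 15 of 24, and rose in 5 (median -0.47). The short-chain dehydrogenase Acads had 7.89 and 7.27 CPM in starved cells, against 41.6 and 37.9 CPM in control cells, and the coactivator Ppargc1a fell by 2.19. The acyl-CoA thioesterases Acot2 and Acot1 rose most, by 4.79 and 4.76, with Acot2 at 78.4 and 82.8 CPM in starved cells, against 2.57 and 3.24 CPM in control cells. Their sequences are nearly identical, so that reads may be shared between them. Cpt1a, the gate of mitochondrial fatty acid entry, rose by 0.22, a call lost with library totals (0.14, edgeR adjusted p = 0.0573), without the second control library (0.14) and without the first starved library (0.17).

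Most genes of energy metabolism fell. Nuclear genes of the respiratory chain fell in 30 of 35 and rose in 2 (median -0.41), led by the complex I subunits Ndufb10 (23.4 and 22.3 CPM in starved cells, against 86.3 and 73.4 CPM in control cells) and Ndufv2 (log2 fold change -1.54). Of genes of the mitochondrial genome 2 rose and 2 fell of 13 (median -0.04). Of the list of mitochondrial stress and protein quality genes 3 rose and 5 fell of 13. The matrix chaperone Hspa9 rose to 2038 and 2059 CPM in starved cells, against 605 and 639 CPM in control cells. The protease Lonp1 rose by 1.48, but the chaperonin Hspd1 and the unfoldase Clpx did not pass and the co-chaperonin Hspe1 fell by 0.72. Of 22 glycolysis genes 14 fell and 3 rose (median -0.35). Hk2, an inducible hexokinase, rose to 81.5 and 79.9 CPM in starved cells, against 45.6 and 41.2 CPM in control cells, while Pfkm fell by 1.72 and Pdk1, a kinase that closes pyruvate dehydrogenase, fell by 1.44. Of 7 pentose phosphate genes 0 rose and 5 fell, and the entry enzyme G6pdx had 50.7 and 50.4 CPM in starved cells, against 130.1 and 126 CPM in control cells.

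**Figure D3:**
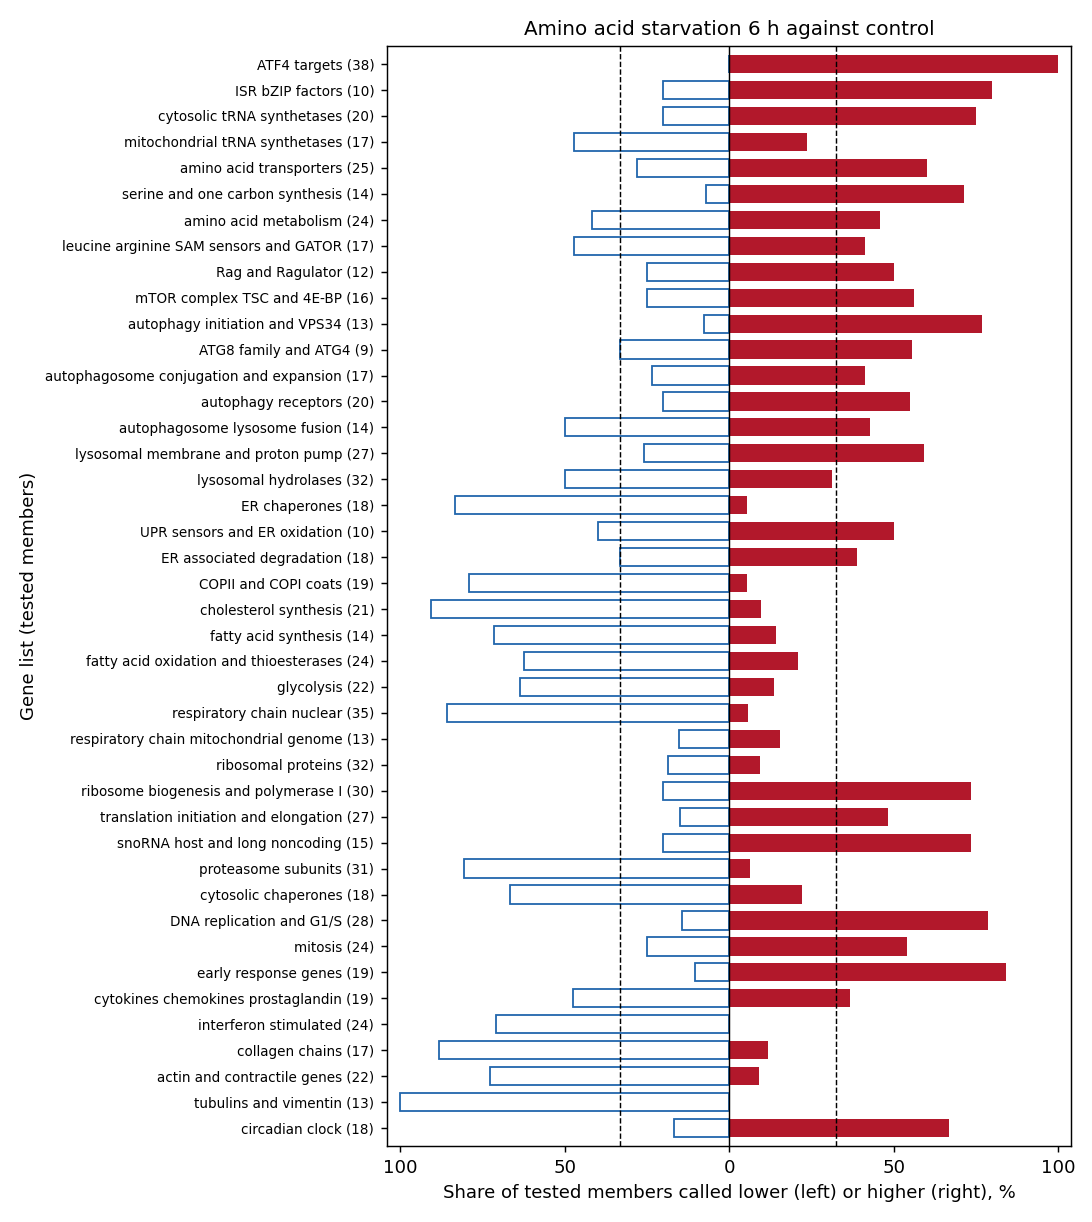
Share of tested members that were called higher (right, filled) or lower (left, open) after amino acid starvation for 6 h against control cells, for 42 gene lists (number of tested members in brackets). Dashed lines mark the shares over all 17696 genes tested, 32.3% higher and 33.3% lower; all ATF4 targets are on the higher side and all tubulins with vimentin on the lower side.

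Most factors that build ribosomes rose, and most proteasome genes fell. Ribosomal protein genes moved little: of 32, 3 rose and 6 fell, with a median of -0.04, and many have near-identical copies in the genome. Factors that build ribosomes rose in 22 of 30 genes and fell in 6 (median 0.50), among them the nucleolar GTPase Gnl3 (335 and 329 CPM in starved cells, against 142 and 156 CPM in control cells). At 12 h 27 of the 30 were lower than at 6 h and 0 were higher (median -0.74; over all genes, 27.1% were lower and 27.8% higher at 12 h, 54.9% in all). Of translation factors 13 rose and 4 fell of 27. Eif1, which sets the stringency of start codon choice, had 1278 and 1272 CPM in starved cells, against 406 and 411 CPM in control cells. Eef2k, the kinase that arrests elongation, fell to 13.3 and 11.97 CPM in starved cells, against 36.7 and 35.5 CPM in control cells. Host genes of small nucleolar RNAs and other long noncoding RNAs rose in 11 of 15 (median 0.97), with Snhg1 at 517 and 531 CPM in starved cells, against 127 and 143 CPM in control cells. Of 14 genes of nonsense-mediated decay, which degrades many spliced host transcripts, 7 rose and 2 fell, with Upf1 itself at -0.02, which did not pass. Proteasome genes fell in 25 of 31 and rose in 2 (median -0.44). Psmd6 and Psmb6 were lowest, at log2 fold changes of -1.24 and -1.15. Nfe2l1, the factor that drives proteasome genes, rose to 342 and 336 CPM in starved cells, against 181 and 182 CPM in control cells. Cytosolic chaperones fell in 12 of 18, and rose in 4 (median -0.54). Hspa8, the constitutive HSC70, had 1162 and 1154 CPM in starved cells, against 3903 and 3802 CPM in control cells, and the small heat shock gene Hspb1 fell by 2.41.

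Cell cycle genes gave a mixed picture. Of 28 genes of DNA replication and entry into S phase 22 rose and 4 fell (median 0.55), and the licensing factor Cdt1 had 321 and 320.0 CPM in starved cells, against 123 and 102 CPM in control cells. Pcna, the polymerase clamp, had 679 and 669.9 CPM in starved cells, against 323 and 331 CPM in control cells. Genes of mitosis rose in 13 and fell in 6 of 24 (median 0.21). Against glucose starvation, higher levels were found in 24 of 28 replication genes and 21 of 24 mitotic genes. At the same time the G1 cyclin Ccnd1 fell to 44.7 and 40.4 CPM in starved cells, against 254 and 246 CPM in control cells, and Ccnd3 fell by 1.45. The inhibitor Cdkn1a, encoding p21, rose to 212 and 217 CPM in starved cells, against 24.6 and 23.9 CPM in control cells, whereas inhibitors of the INK4 family Cdkn2b, Cdkn2c and Cdkn2d fell, with log2 fold changes of -1.21, -0.63 and -1.33. Gadd45a, a growth arrest gene known for its induction by DNA damage, had 119 and 128 CPM in starved cells, against 5.95 and 5.67 CPM in control cells. Of 22 p53 targets 12 rose and 7 fell, with death genes Pmaip1 and Bbc3 at 2.36 and 1.75 and the classical targets Ccng1 and Sesn1 at -1.11 and -1.31.

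Early response genes, transcribed within minutes of a growth or stress signal, were above control cells but had come down since 3 h. Against control cells 16 of 19 rose and 2 fell (median 1.53). Against 3 h of the same starvation, 1 was higher and 17 were lower (median -1.44). Over all genes, 4375 genes (24.7%) were higher at 6 h than at 3 h and 4493 (25.4%) lower, 50.1% in all. Scaling by library totals alone gave a median of all genes of 0.11, against 0.0065 with TMM, and made 60.6% of calls in this comparison higher, against 49.3% with TMM. Of AP-1 factor genes 8 of 10 rose against control cells and 1 fell, Fosl2, with -0.40. Maff, a small Maf protein gene of that list, had 269 and 280.0 CPM in starved cells, against 23.7 and 22.5 CPM in control cells. Egr1, a zinc finger factor of this class, averaged 82.3 ± 0.37 CPM in control cells and 1352 ± 13.2 CPM, 529 ± 5.2 CPM and 45.4 ± 3.3 CPM at 3, 6 and 12 h of amino acid starvation (SD, n = 2 each). In glucose-starved cells at 6 h it averaged 7.78 ± 0.27 CPM. Growth factor genes of the EGF family were measured too. Areg, or amphiregulin, averaged 1.49 ± 0.22 CPM in control cells and 45.9 ± 0.72 CPM, 17.4 ± 2.0 CPM and 2.86 ± 0.76 CPM at the 3 times, and 7 of 9 members of that list rose against control cells. Phosphatases and Sprouty proteins that switch off ERK signalling rose in 11 of 14 against control cells, and 11 were lower than at 3 h.

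Inflammatory genes were lower at 6 h than at 3 h. Of 19 tested cytokine, chemokine and prostaglandin genes 7 rose and 9 fell against control cells (median -0.04), but 17 were lower than at 3 h and 0 higher (median -2.08). The cytokine gene Il6 was scarce, at 0.567 and 0.472 CPM in starved cells, against 0.196 and 0.0438 CPM in control cells, and its call was lost without the second control library (1.39) or the first starved library (1.95). Ptgs2, encoding cyclooxygenase 2, had 173 and 164 CPM in starved cells, against 29.1 and 31.1 CPM in control cells. The chemokines Ccl2, Ccl7 and Cxcl5, which draw in white cells, fell, and Ccl2 had 17.97 and 18.05 CPM in starved cells, against 51.4 and 56.2 CPM in control cells. Interferon-stimulated genes fell in 17 of 24 and rose in 0 (median -1.18). The antiviral gene Oasl2 fell to 1.37 and 1.56 CPM in starved cells, against 7.22 and 7.31 CPM in control cells, and Ifit1, whose product binds viral RNA, fell by 1.96 on the log2 scale.

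Most listed cytoskeleton genes fell at 6 h. All 13 genes of the list of tubulins, vimentin and the tubulin autoregulation factor Ttc5 fell (median -1.33). Tubb5, a beta tubulin, had 807 and 818 CPM in starved cells, against 2564 and 2316 CPM in control cells, and the alpha tubulin Tuba1a 557 and 547 CPM in starved cells, against 1689 and 1519 CPM in control cells. Tubulin genes are close in sequence, which leaves the split of reads among them uncertain. Actin and contractile genes fell in 16 of 22 and rose in 2, by a median of -0.37. Actb, or beta actin, had 1134 and 1140.3 CPM in starved cells, against 3003 and 2979 CPM in control cells. The calponin Cnn2 had 26.9 and 27.3 CPM in starved cells, against 352 and 339.9 CPM in control cells, while Cald1 rose by 0.76. At 12 h 21 of these 22 were lower than at 6 h. Collagen chains fell in 15 of 17 (median -0.59). Col1a1, a chain of type I collagen, had 705 and 694 CPM in starved cells, against 2485 and 2219 CPM in control cells. Its partner chain Col1a2 fell to 197 and 202 CPM in starved cells, against 1192 and 1118 CPM in control cells. Col3a1, of type III collagen, fell by 2.70. The chains that rose were Col5a3, by 1.55, and Col11a2, by 4.37. Of matrix glycoproteins 4 rose and 6 fell of 17. Fibronectin, Fn1, had 3000.2 and 2875 CPM in starved cells, against 1590.0 and 1439.8 CPM in control cells. Fbln5, encoding an elastic fibre protein, had 57.5 and 57.5 CPM in starved cells, against 30.3 and 26.5 CPM in control cells. Sparc, a collagen-binding protein gene, fell by 1.17. Of matrix proteases and their inhibitors 4 rose and 10 fell of 16. The collagenase gene Mmp13 rose to 3.64 and 4.24 CPM in starved cells, against 0.0654 and 0.175 CPM in control cells. The membrane protease Mmp14 and the inhibitor Timp2 fell, with log2 fold changes of -1.56 and -1.52.

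Clock genes, which form a daily feedback loop, shifted unequally. Of 18, 12 rose and 3 fell (median 0.54). Arntl, encoding the activator BMAL1, had 84.6 and 86.8 CPM in starved cells, against 8.83 and 8.15 CPM in control cells (log2 fold change 3.33, SE 0.079, edgeR adjusted p = 3.81e-24). Its partner Clock rose by 0.20, a call lost with library totals in place of TMM (0.12, edgeR adjusted p = 0.126), without the first control library (0.18) and without the second starved library (0.16). Rora, which activates Arntl, had 3.12 and 3.66 CPM in starved cells, against 0.0436 and 0.307 CPM in control cells, and the repressor gene Nfil3 rose by 2.20. Of targets of that activator pair, Ciart and Cry1 rose by 3.09 and 1.35, whereas Dbp had 1.02 and 1.14 CPM in starved cells, against 2.900 and 3.18 CPM in control cells, and Per3 fell by 1.22. Per1 and Per2 did not pass, at -0.06 and -0.24, but Per2 was called lower with library totals, at -0.32 (edgeR adjusted p = 0.0228).

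**Figure D4:**
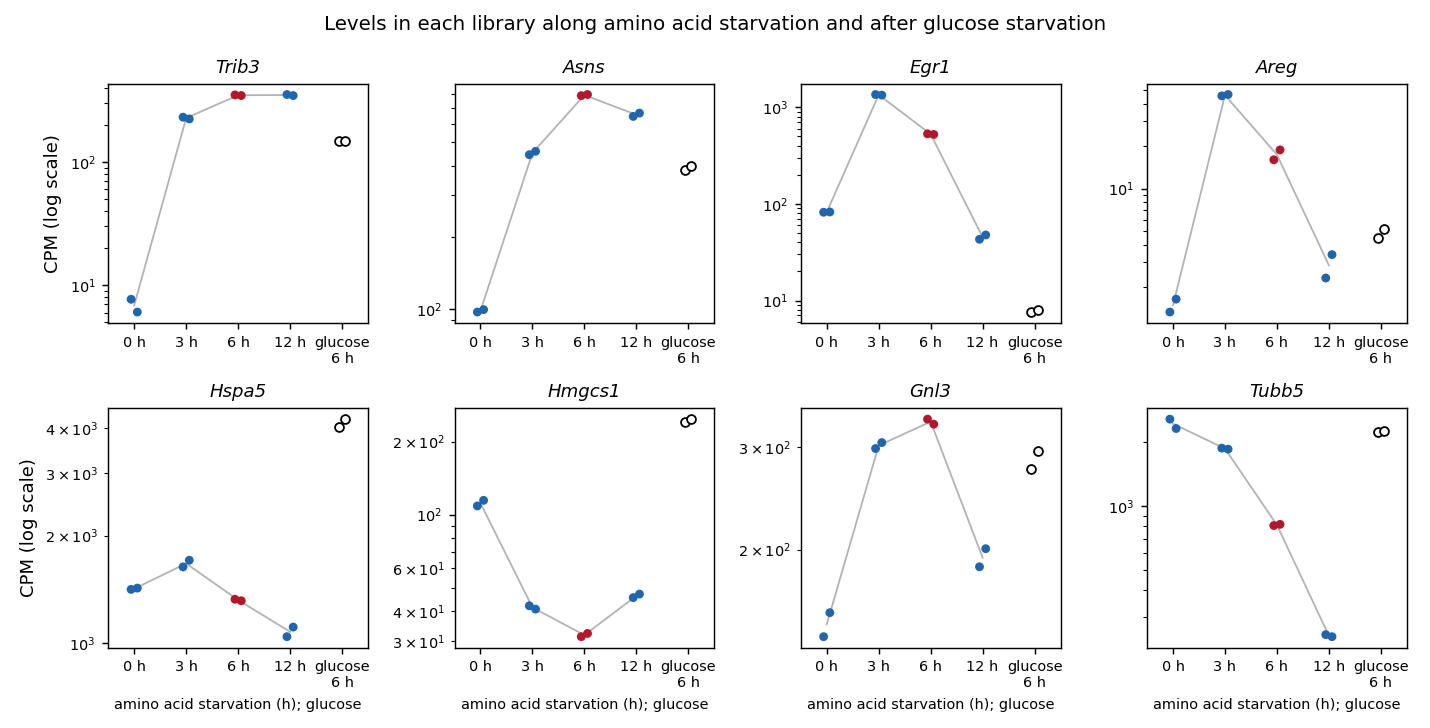
Levels in each library (y axis, CPM, log scale) of 8 genes in control cells, after 3, 6 and 12 h of amino acid starvation and after 6 h of glucose starvation; circles are single libraries, in red for amino acid starvation at 6 h and open for glucose starvation, and lines join the means along amino acid starvation. Egr1 and Areg are highest at 3 h, Asns and Trib3 remain above control cells at 12 h, and Hspa5 is highest after glucose starvation.

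Among all genes of sufficient level (a mean log2 CPM of at least 3 over the series, libraries that do not overlap and a settled name), the 12 highest fold changes against control cells were those of Trib3, Slc7a11, Acot2, Gadd45a, Apobr, Ndrg1, Slc6a9, Vldlr, Atf5, Nupr1, Chac1 and Gpt2. Of those not yet described, Ndrg1, a gene of hypoxia and differentiation, had 402 and 389 CPM in starved cells, against 23.6 and 22.8 CPM in control cells. Vldlr, a lipoprotein receptor, had 154 and 149 CPM in starved cells, against 9.86 and 10.2 CPM in control cells. Apobr, a receptor for apolipoprotein B, had 145 and 147 CPM in starved cells, against 7.63 and 7.95 CPM in control cells, and its exons overlap another annotated gene. Among the 12 lowest were those of Cyp1b1, Cnn2, Mir5114, Elovl6, Scd2, Maged1, Atoh8, Mov10, Cdh3 and Mta3. Cyp1b1, a cytochrome P450 of estrogen and xenobiotic metabolism, had 2.98 and 3.23 CPM in starved cells, against 65.8 and 68.98 CPM in control cells. The adaptor gene Maged1 had 43.6 and 39.5 CPM in starved cells, against 344 and 345 CPM in control cells. The helicase gene Mov10 had 6.09 and 7.22 CPM in starved cells, against 53.1 and 49.4 CPM in control cells. The starved libraries of each of these lay below both control libraries, which the rule for naming them required. Atoh8, a helix-loop-helix factor, Cdh3, or P-cadherin, and Mta3, a chromatin remodelling subunit, had log2 fold changes of -3.03, -2.89 and -2.86. Mir5114 names a transcript that overlaps another gene, with -3.40.

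Set against 3 h of the same starvation, the highest differences by that rule were those of Slc25a42, Ranbp6, Zdhhc24 and Ppm1e, and the lowest those of Ccn2, Pdgfb, Has2 and Cxcl1. Slc25a42, a mitochondrial carrier of coenzyme A, averaged 13.9 ± 0.41 CPM at 6 h and 2.64 ± 0.16 CPM at 3 h (SD, n = 2 each). Ccn2, or connective tissue growth factor, a YAP target, averaged 86.6 ± 2.7 CPM at 6 h and 1179 ± 2.1 CPM at 3 h, with 194 ± 14.1 CPM in control cells. Has2, which makes hyaluronan, averaged 14.7 ± 2.5 CPM at 6 h and 131 ± 0.47 CPM at 3 h. Control cells averaged 15.4 ± 0.71 CPM for Has2 and 8.58 ± 0.41 CPM for Slc25a42, so that of these groups Ccn2 and Has2 were highest, and Slc25a42 lowest, at 3 h. Of ATF4 targets, 25 of 38 were higher at 6 h and 10 lower (median 0.36). Asns averaged 790.3 ± 6.2 CPM at 6 h and 452 ± 10.5 CPM at 3 h, whereas Chac1 averaged 174 ± 1.8 CPM at 6 h and 243 ± 4.2 CPM at 3 h.

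From 6 to 12 h, 4917 genes were higher at the later time and 4791 lower. Library totals alone gave a median of all genes of 0.22, against 0.0065 with TMM, and made 69.3% of calls higher, against 50.6% with TMM, so that directions of small changes in this comparison depend on the scaling. ATF4 targets were lower at 12 h in 28 of 38 and higher in 2 (median -0.51). The highest differences by the rule were those of Tmem231, Tmem104, Krba1 and Bbs1, of which Tmem231 and Bbs1 belong to the primary cilium. Bbs1 averaged 55.8 ± 2.0 CPM at 12 h and 15.4 ± 0.30 CPM at 6 h. The lowest were those of Il1rl1, Egr1, Hmga2 and Cxcl1. Il1rl1, the receptor of interleukin 33, averaged 4.598 ± 0.52 CPM at 12 h and 83.2 ± 0.33 CPM at 6 h, and the chromatin protein gene Hmga2 40.4 ± 2.2 CPM at 12 h and 419 ± 13.9 CPM at 6 h. Cholesterol genes, low at 6 h, were higher at 12 h in 14 of 21 and lower in 3 (median 0.34). Hmgcs1 was among those higher, at 46.2 ± 1.1 CPM after 12 h and 31.8 ± 0.69 CPM after 6 h.

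Beyond the ER and sterol genes, the highest differences from glucose starvation at 6 h were those of Egr1, Apobr, Psd and Mast1, and among the lowest were those of Gask1b, Cnn2 and Cyp1b1. Cyp1b1 averaged 3.102 ± 0.18 CPM without amino acids and 59.2 ± 1.9 CPM without glucose. Cnn2 averaged 27.1 ± 0.23 CPM without amino acids and 544 ± 11.7 CPM without glucose, and Gask1b 2.51 ± 0.060 CPM without amino acids and 64.1 ± 5.0 CPM without glucose. The kinase gene Mast1 averaged 33.7 ± 3.3 CPM without amino acids and 3.44 ± 0.46 CPM without glucose. Contractile and tubulin genes were lower without amino acids, in 18 of 22 and 12 of 13. Autophagy initiation genes were higher in 10 of 13 and lower in 0 (median 0.28), with Atg13 at 58.4 ± 1.0 CPM without amino acids and 29.96 ± 2.1 CPM without glucose. Ribosomal protein genes were lower without amino acids in 25 of 32, by a median of -0.21.

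Of the 263 genes whose values are given in the text, 73 overlap another annotated gene by their exons, so that part of their reads may belong to a neighbour or an antisense gene: Aldh1l2, Apobr, Arntl, Atf5, Atp6v0b, Bak1, Bax, Bcat1, Bcat2, Bnip3, Cars2, Ccn2, Ccnd1, Ccnd3, Cdkn1a, Cebpd, Cebpg, Cln3, Col3a1, Copg2, Csf1r, Dbp, Ddit3, Dnajb9, Eef2k, Eif2ak2, Eif2b4, Elovl6, Farsb, Fkbp8, Fn1, Ftl1, G6pdx, Gabarapl1, Gadd45a, Ggps1, Gnl3, Hars, Has2, Hmga2, Hmgcs1, Hspa8, Hspe1, Irs1, Irs2, Map1lc3b, Mast1, Mir5114, Mthfd1, Ndrg1, Nr1h3, Pcolce, Pdia4, Pdia6, Pfkm, Phb2, Ppp1r15a, Ppp1r15b, Psd, Ranbp6, Rb1cc1, Rora, Rragc, Scd2, Slc38a9, Slc43a2, Slc6a9, Snap29, Snhg1, Sqstm1, Tuba1a, Txnip and Upf1.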

How the data were processed

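The series holds 14 RNA sequencing libraries of mouse embryonic fibroblasts, 2 for each of 7 groups. The values are whole-number read counts per transcript, as deposited by the authors, not normalised. STAR, bedtools and GRCm39 are named in the submitters' processing notes, and their versions, the annotation, the counting rule and the use of strand are not given in the sources used here. Of counts from 1 to 9, between 69.4% and 74.0% per library were even, against 49.7% to 51.0% of counts over 1000, as would be seen where both ends of a fragment are counted, in which case counting error at low levels exceeds what the counts state; the cause was not tested. Transcripts of a gene can hold the same reads, so 1 transcript per gene symbol, the one with the highest sum over the 14 libraries, was kept, which left 35270751 to 55349673 reads a library. The 58 rows with no gene name held 0% of reads and were left out.

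Counts were fitted in edgeR 4.0.16 (R 4.3.3) with TMM factors, filterByExpr, 7 group means and the robust quasi-likelihood test, two-sided, with Benjamini-Hochberg adjustment over 17696 genes at 0.05. Alternatives were DESeq2 1.42.0, other scalings and filters, the compared groups alone, a replicate block, each library left out, the longest transcript, and genes that overlap another gene left out. Exon overlaps came from an annotation of another build, GRCm38, matched by symbol. TPM divides by the transcript length in the table. Chi-square over degrees of freedom ranged from 3.573 to 15.88 between the libraries of a group, a value which counting both ends of a fragment would raise, and each was counted as 1 sample. This does not show that they came from separate cultures.

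The genes named were the 12 highest and 12 lowest fold changes (4 and 4 in the other comparisons) with no overlap between the libraries of the groups, a settled symbol and an average log2 CPM of 3 or more, and examples from 77 gene lists, those with the largest changes, those against the direction of their list and those a role calls for. Members and lists were chosen with earlier results of these data known. Of 1200 listed genes 1146 passed the filter. Some genes that the rule or the lists would name are not reported here, but they count in the tests and in the counts of lists.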

Additional observations from a re-analysis of the deposited data

Results flagged for a closer look

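The 3 comparisons between starved groups differed by a direct test of the difference, and each is given with the genes that its naming rule singled out (edgeR, log2 fold changes). Amino acid starvation at 6 h against 3 h gave 8868 genes past the threshold. The differences were 2.40 for the coenzyme A carrier gene Slc25a42, 2.32 for the importin gene Ranbp6, 2.20 for the palmitoyltransferase gene Zdhhc24 and 2.19 for the phosphatase gene Ppm1e. Ccn2 had -3.77, the growth factor gene Pdgfb -3.29, Has2 -3.15 and the chemokine gene Cxcl1 -3.14. The later time, 12 h against 6 h, gave 9708 genes. Higher at 12 h were Tmem231, Tmem104, Krba1 and Bbs1, by 2.38, 2.02, 1.91 and 1.86. Lower were Il1rl1, Egr1, Hmga2 and Cxcl1, with -4.17, -3.54, -3.37 and -3.35. Amino acid starvation against glucose starvation at 6 h gave 11295 genes. Egr1, Apobr, Psd and Mast1 were higher without amino acids, by 6.08, 3.75, 3.36 and 3.29, and Gask1b, Cnn2 and Cyp1b1 lower, with -4.67, -4.33 and -4.25. Groups of 2 libraries were too small to look for a library far from the others.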

How the results depend on the processing

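Of 3606 recomputed values of named genes 3557 kept their direction and side of the threshold, and none of the 276 values called changed sign. Of the 13 not called, 8, all within 0.0644 of 0, changed sign in 27 recomputations and have no settled direction. With library totals Eif2ak4 had -0.068, Gcn1 -0.069 and Mtr -0.068. With DESeq2-type size factors Qars had 0.030 and Upf1 0.011, and with DESeq2 itself the same genes had 0.030 and 0.011. With a stricter filter Bax had 0.020, Mtor 0.0089, Qars 0.054 and Upf1 0.035, and with no filter Gcn1 had -3.6e-05. Qars had 0.0035 with the compared groups alone and 0.020 with overlapping genes left out. With each library left out, Bax ranged from -0.112 to 0.047, Eif2ak4 from -0.070 to 0.096, Gcn1 from -0.100 to 0.127, Has2 from -0.258 to 0.094, Mtor from -0.181 to 0.101, Mtr from -0.015 to 0.037, Qars from -0.042 to 0.040 and Upf1 from -0.0998 to 0.063. Counts of genes called stayed within 1.5 times in 223 of 230 recomputations. With overlapping genes left out, which leaves fewer genes to test, amino acid starvation at 6 h against control gave 6483 calls, 3229 higher and 3254 lower, 1304 of them at least 2-fold higher and 1312 at least 2-fold lower. With library totals alone, 12 h against 6 h gave 3191 lower calls, and 2025 were at least 2-fold higher; the cause was not tested beyond the shift of the median given above. Leaving out each library in turn gave 10478 to 10711 calls against control, 7363 to 7440 for 6 h against 3 h, 8204 to 8444 for 12 h against 6 h and 9969 to 10210 against glucose starvation; a group of 1 library is then assumed to vary like the others. DESeq2 gave 11264, 8587, 9410 and 10972 calls in these comparisons. Replicate numbers are shared across groups, the labels do not say that they mark a shared culture or day, and they were not used as pairs. Deviations of same-numbered libraries correlated at -0.262 to 0.388 over 21 pairs of groups, with 11 over 0.1. For 6 h of starvation the correlation was -0.026 with control, 0.229 with 3 h, 0.270 with 12 h and 0.066 with glucose starvation, values that come from the data and not from the design. The fit with the replicate block gave 11709, 9062, 9897 and 11386 calls, and called Hspa5 lower (adjusted p = 0.0285, edgeR). Calls of named genes that were lost under an alternative are given beside their values. Has2 was called lower against control only without the second starved library, at -0.26. Of 1974 recomputed list counts 131 moved by more than 1.5 times, and of 987 list medians 99 moved by 0.1 or more. List medians changed sign in 25 cases over 15 lists, all with a median within 0.37 of 0. With overlapping genes left out, the median of the ATG8 and ATG4 list was -0.29, and without the second starved library that of the cytokine list was 0.15. Without the second control library, the mitochondrial genome list had a median of 0.10. Depth limits genes near 0, where both ends of a fragment may be counted.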

Other observations

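Further gene lists had members called in both directions at 6 h of amino acid starvation. Their counts are to be read against 32.3% of all genes called higher and 33.3% called lower, and a count near these shares says nothing of the list as a whole. NRF2 drives genes against oxidative stress, and of 22 of its targets 8 rose and 14 fell against control cells. The member that rose most was the cystine carrier gene Slc7a11, which also stands among the ATF4 targets, followed by Hmox1, encoding heme oxygenase, at 209 and 208 CPM in starved cells, against 88.8 and 84.7 CPM in control cells. The quinone reductase gene Nqo1 fell to 3.31 and 2.29 CPM in starved cells, against 7.13 and 8.61 CPM in control cells, and the iron store genes Fth1 and Ftl1 had log2 fold changes of -0.85 and -0.31. In glutathione turnover 4 rose and 6 fell of 12. Gclc, the catalytic subunit of its first enzyme, rose by 0.78, while the peroxidase gene Gpx4 fell by 0.70. Of 14 genes known for induction by low oxygen 6 rose and 6 fell. Kdm3a, a histone demethylase gene of that list, had 142 and 139.7 CPM in starved cells, against 46.4 and 46.9 CPM in control cells, whereas Egln3, an oxygen-sensing hydroxylase gene, fell by 0.90. Among polyamine genes 5 rose and 4 fell of 11, and Sat1, which acetylates polyamines for export, had 98.04 and 101 CPM in starved cells, against 42.9 and 43.7 CPM in control cells.

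Of 17 FOXO targets and insulin pathway genes 7 rose and 9 fell. The cyclin gene Ccng2 rose to 44.4 and 46.1 CPM in starved cells, against 10.97 and 14.5 CPM in control cells. The insulin receptor substrates moved in opposite directions, with Irs1 at 14.7 and 11.9 CPM in starved cells, against 39.5 and 45.7 CPM in control cells, and Irs2 higher by 0.46. In the BCL2 family, which governs cell death, the effector gene Bak1 fell to 50.2 and 49.9 CPM in starved cells, against 173 and 161 CPM in control cells. Its counterpart Bax did not pass, at -0.04, while protective Mcl1 rose by 0.88 and protective Bcl2l1 fell by 0.65. Of 15 YAP and TAZ pathway genes 5 rose and 8 fell, with the secreted Ccn1 at 119 and 112 CPM in starved cells, against 319 and 321 CPM in control cells. Enzymes that process and crosslink collagen fell in 10 of 14 and rose in 2 (median -0.42). Pcolce, an enhancer of procollagen cleavage, had 237 and 230.2 CPM in starved cells, against 564 and 522 CPM in control cells. Subunits of the cytosolic chaperonin fell in 5 of 8. Of ubiquitin genes 1 rose and 3 fell of 6, and of histone genes 2 rose and 3 fell of 11. Of the sugar-responsive alpha-arrestin list 3 rose and 3 fell of 7, with Txnip at 30.7 and 34.9 CPM in starved cells, against 9.59 and 8.28 CPM in control cells.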
